A study of Homo sapiens with 36 samples.

Results

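The clusters described here lay fully inside the coding part of an exon with at least 1000 coding nt, on the same strand as the gene. They mark RNA of long, uninterrupted stretches of coding sequence in a PAR-CLIP experiment on SCAF4 and SCAF8, a method that reads protein crosslinks from T-to-C changes. Inputs, taken without an immunoprecipitation (IP), supplied part of them. Exons were taken from GENCODE 44 on GRCh38, and each protein-coding gene with more than 1 exon was represented by its longest isoform by summed exons. There were 8526 such clusters among the 278185 clusters of 18 lists, and a further 28473 lay fully inside shorter coding exons. Of 2471 eligible coding parts, 2446 did not overlap one another, in 2296 genes, and they held 4695128 coding nt with a median of 1503 nt per part. The longest isoform of 2598 genes had no coding part, so those genes could not contribute.

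All cells were Flp-In T-REx HEK293, a human embryonic kidney line made for inducible transgenes, and all were labeled WT for CRISPR status. A stable line carried doxycycline-inducible FLAG-SCAF4 and another FLAG-SCAF8, each from clones that the study tested for the tagged protein by western blot. The parental cells had no FLAG-tagged protein, so that their FLAG IP is called control IP. The labels give 100 ng/mL doxycycline for both FLAG lines and none for the parental line, whereas the methods add doxycycline, at another dose, to all 3. Both sources give 100 μM 4SU, a uridine analog that lets light crosslink RNA to bound protein, overnight and a pulse of 500 μM for 2 h in every sample, and 365 nm light at 2000 J/m2. A cluster is a stretch that passed minimum numbers of reads and of T-to-C changes, which crosslinking makes more frequent. Each list combined the soluble and chromatin libraries of 1 replicate of 1 condition. The 36 libraries thus gave 18 lists, with 3 replicates of IP and input in each line. The control IP lists and inputs were not used as filters here, and read depth is unknown for every list.

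SCAF4 and SCAF8 are related nuclear proteins with a domain that binds the C-terminal repeats of RNAPII and a domain that binds RNA, and they are known as mRNA anti-terminators. Most human coding exons are far shorter than those studied here. Long coding exons are typical of zinc finger transcription factors, protocadherins, large chromatin regulators and scaffold proteins, and inside them RNA is equally exonic before and after splicing, so a cluster there does not by itself tell nascent from mature transcripts.

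When overlapping clusters were merged, each of the 6 IP lists of SCAF4 and SCAF8 contributed to 188 regions. Only 8 of these 188 overlapped no cluster of the 12 other lists. They lay in DYNC1H1, KCND1, KMT2A, PHRF1, PRR14L, SRCAP, TASOR2 and USP49. The region in DYNC1H1, the dynein heavy chain gene, had no stretch common to all 6 lists. The 6 with the longest stretch common to all 6 lists are printed to show what such RNA looks like. Letters run 5′ to 3′ on the transcribed strand with T for U, and capitals mark each CGG or CGA, the first of 3 motifs examined.
KCND1: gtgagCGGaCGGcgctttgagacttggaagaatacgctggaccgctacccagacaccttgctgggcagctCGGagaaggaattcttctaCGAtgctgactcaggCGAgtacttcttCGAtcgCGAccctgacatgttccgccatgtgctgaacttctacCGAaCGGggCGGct
TASOR2: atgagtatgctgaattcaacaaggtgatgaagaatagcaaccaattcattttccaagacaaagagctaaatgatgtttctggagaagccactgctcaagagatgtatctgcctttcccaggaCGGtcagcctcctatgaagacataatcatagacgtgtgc
PHRF1: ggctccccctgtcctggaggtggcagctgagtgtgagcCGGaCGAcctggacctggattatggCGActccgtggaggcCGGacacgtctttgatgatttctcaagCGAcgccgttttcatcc
PRR14L: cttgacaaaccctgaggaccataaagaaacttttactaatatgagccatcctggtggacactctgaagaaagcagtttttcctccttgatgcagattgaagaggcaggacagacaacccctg
SRCAP: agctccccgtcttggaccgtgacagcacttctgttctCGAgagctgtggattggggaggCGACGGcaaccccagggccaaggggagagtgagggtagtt
KMT2A: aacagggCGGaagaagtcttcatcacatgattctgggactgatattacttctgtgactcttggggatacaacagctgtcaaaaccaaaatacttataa
The stretch in KCND1, which encodes a voltage-gated potassium channel, was 173 nt at chrX:48969964-48970136 on the minus strand, in exon 1 of 6, and held 10 matches to CGG or CGA with 57.2% G + C. The stretch in TASOR2, a gene for a relative of a heterochromatin silencing subunit, was 161 nt at chr10:5749759-5749919 on the plus strand in exon 18 of 24, and its region ended 25 nt before the downstream splice junction. PHRF1, which encodes a PHD and RING finger protein that binds RNAPII, carried 122 nt at chr11:609179-609300 on the plus strand in exon 14 of 18, with 5 matches. In PRR14L, the 122 nt at chr22:31716260-31716381 on the minus strand, in exon 4 of 9, held 0 matches. SRCAP, an ATPase that loads the histone variant H2A.Z, had 99 nt at chr16:30739102-30739200 on the plus strand in exon 34 of 34, with 3 matches. The stretch in KMT2A, a histone H3 lysine methyltransferase, was 98 nt at chr11:118473949-118474046 on the plus strand in exon 4 of 37, with 1 match and 39.8% G + C. These 6 stretches thus ranged from 39.8% to 61.6% G + C, and 1 of them lacked the motif.

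To ask whether SCAF4 and SCAF8 IPs yielded more RNA of long coding exons than their inputs, the number of these clusters was compared with the length of each list. The SCAF4 IP lists held 770, 1658 and 1105 of them in replicates 1, 2 and 3, or 4.05%, 3.05% and 3.25% of the list. The SCAF8 IP lists held 749, 550 and 1097, or 2.97%, 3.01% and 2.64%. For the inputs of the FLAG-SCAF4 line the numbers were 340, 175 and 165, or 2.90%, 3.42% and 3.44%, and for the FLAG-SCAF8 line 203, 359 and 284, or 2.22%, 3.46% and 3.15%. The ranges of IPs and inputs overlapped. On the log2 scale the mean share was higher by 0.03 in the 6 SCAF IPs than in the 6 inputs (two-sided exact permutation test over lists, p = 0.816), and without replicate 1 it was lower by 0.18 (exact permutation p = 0.0571).

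The control IP lists, which were short, held 375, 94 and 57 of these clusters, or 3.89%, 4.06% and 3.52%. Inputs of the parental line held 314, 112 and 119, or 2.51%, 2.45% and 2.34%, so that every control IP lay above every parental input. With 3 lists against 3, the exact permutation test cannot give less than p = 0.1, and this was its value. SCAF IP lists had a mean log2 share 0.28 lower than the control IPs (exact permutation p = 0.0714), and among clusters with scores at or above their list's median the share was 0.51 lower (exact permutation p = 0.0119). A higher share in a list thus did not set SCAF4 or SCAF8 IPs apart from the IP without a tagged protein.

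**Figure D1:**
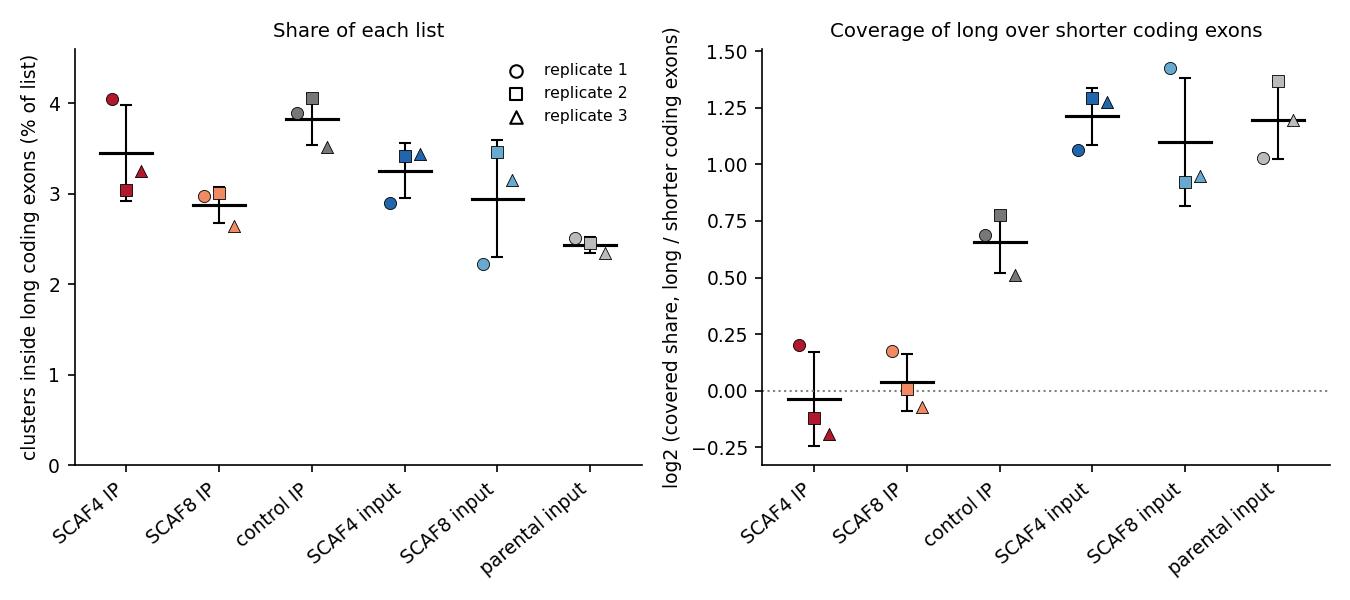
Clusters inside long coding exons as a percent of each list (left) and the log2 ratio of the covered share of long coding exons to that of shorter coding exons in the same genes (right). Points are lists, with the replicate as the symbol, and lines and bars are group means and SD (n = 3). On the left the SCAF IP and input groups overlap, and on the right the 6 SCAF IP lists sit between −0.19 and 0.20, below all 12 others.

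The same question was then asked within genes. For 1854 genes with both long and shorter coding exons, the share of coding nt covered by any cluster was computed for both kinds of exon. In the SCAF4 IPs, 4.33%, 9.81% and 6.17% of the long parts and 3.77%, 10.7% and 7.05% of the shorter exons were covered. The SCAF8 IPs covered 4.21%, 2.90% and 5.93% of the long parts and 3.72%, 2.89% and 6.23% of the shorter exons. Long and shorter coding exons were therefore covered to a like extent, with a mean log2 ratio of 0.00 ± 0.16 (SD, n = 6).

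In the inputs the long parts stood out. The FLAG-SCAF4 line inputs covered 1.78%, 0.792% and 0.745% of the long parts and 0.853%, 0.323% and 0.308% of the shorter exons. The FLAG-SCAF8 line inputs covered 1.18%, 1.72% and 1.38% against 0.438%, 0.908% and 0.716%. Their log2 ratios ranged from 0.92 to 1.42 and did not overlap those of the SCAF IPs. The difference was −1.15 on the log2 scale (two-sided exact permutation test, 6 lists against 6, p = 0.00216, the smallest this design allows), and −1.20 to −1.11 when 1 replicate number was left out.

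Parental inputs behaved like the other inputs, with log2 ratios of 1.03, 1.37 and 1.20. The control IPs lay between both, at 0.69, 0.78 and 0.51, and every SCAF IP was below every control IP (difference −0.66, two-sided exact permutation p = 0.0119, adjusted over 31 measures 0.0410). When each gene's shorter exons set the expectation for its own long parts, the SCAF IPs stayed below their inputs by 0.65 (exact permutation p = 0.00216), but the control IPs spread from −0.54 to 0.29 and overlapped the SCAF IPs (exact permutation p = 0.631). The contrast with inputs therefore held when genes were weighed this way, and the contrast with the control IP did not.

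Lists differed in length along with this ratio. SCAF IP lists held 18287 to 54404 clusters and their inputs 4793 to 11715. A comparison added after the data were seen kept only the shorter IP lists, of 18287 to 25189 clusters, and the longer inputs, of 9008 to 11715. The ratio differed by −0.96 in these IPs (exact permutation p = 0.0286, the smallest possible). Every IP list was still longer than every input, so length was not matched. Within the SCAF IPs, both replicate 1 lists had the highest ratios, 0.20 and 0.18, and replicate 1 had the longer reads. The part of read depth in the ratio was not tested, since the lists hold no reads. Alignment without splicing would lose reads over exon-exon junctions in all lists, and the part of that loss in the ratio was not tested either.

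Compared with other parts of the same genes, long coding exons were covered more than introns in every list. Their covered share was 5.45 to 6.35 log2 units above that of introns in the SCAF IPs and 4.89 to 6.41 units in the inputs of the same lines (exact permutation p = 0.535). The excess over 3′ UTRs was 1.70 to 2.79 units in the SCAF IPs and 0.93 to 2.81 units in these inputs (exact permutation p = 0.128). With both lines pooled, neither comparison separated IPs from inputs. Taken singly, the SCAF8 IPs, at 1.70 to 2.42 units over 3′ UTRs, lay above their own inputs, at 0.93 to 1.51. With 3 lists against 3, the exact permutation p was 0.1, the smallest possible. The SCAF4 IPs overlapped their inputs in this ratio. The control IPs exceeded the SCAF IPs in the ratio to introns, with 6.57, 7.79 and 6.46 units (exact permutation p = 0.0119, adjusted 0.0410).

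Where in the gene the long exon lay did differ. By their splice junctions, 778 of the parts were internal, 370 were first coding exons, 868 were last coding exons and 430 held the whole coding sequence. First coding exons made up 14.4% of the coding nt and held 18.7%, 18.5% and 18.9% of these clusters in the SCAF4 IPs and 18.8%, 16.9% and 18.5% in the SCAF8 IPs. In the inputs the values were 15.3%, 12.0% and 11.5% for the FLAG-SCAF4 line and 8.87%, 11.4% and 11.6% for the FLAG-SCAF8 line. All 6 SCAF IPs were above all of these inputs, by a mean of 6.61 percentage points (two-sided exact permutation p = 0.00216, adjusted over 31 measures 0.00959), and above the 3 control IPs at 12.3% to 15.96% (exact permutation p = 0.0119, adjusted 0.0410). Internal exons showed the opposite. They made up 36.3% of the coding nt and held 50.3% ± 2.45 (SD, n = 6) of the clusters in SCAF IPs and 57.4% ± 2.91 in inputs (exact permutation p = 0.00433, adjusted 0.0103). In replicate 3, MKI67, SON and CENPF, whose eligible exons are all internal, held 18, 15 and 6 of 165 clusters in the FLAG-SCAF4 line input. They held 8, 7 and 16 of 1105 in the SCAF4 IP. For the FLAG-SCAF8 line they held 16, 13 and 11 of 284 in the input and 17, 8 and 20 of 1097 in the IP. The part of such genes in these differences was not tested. Last coding exons, with 33.5% of the coding nt, held 20.3% to 24.4% in SCAF IPs and 14.9% to 25.6% in inputs (exact permutation p = 0.318).

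Inside the exon, clusters were spread over the whole coding part with a slight excess at both ends. Position was scaled from 0, for a cluster at the 5′ edge, to 1, for one at the 3′ edge. Of 10 equal bins, the first held 13.8% ± 0.83 (SD, n = 6) of the clusters of the SCAF IPs and the last 12.0% ± 0.38, and the bins between them held 8.15% to 10.3% on average. In the inputs of the same lines the first bin held 12.98% ± 1.98 and the last 10.54% ± 1.86. Control IPs had 14.05% and 11.18% and parental inputs 13.63% and 9.30%, so the excess in the first bin was not particular to the SCAF IPs. The mean position was 0.471, 0.482 and 0.493 in the SCAF4 IPs and 0.477, 0.481 and 0.483 in the SCAF8 IPs, each below the midpoint. The mean shift was −0.0188 (exact sign flips over the 6 lists, p = 0.0312, the smallest possible). No difference from the inputs was found (−0.00707, exact permutation p = 0.242). Without zinc finger genes the shift was −0.0101 (exact sign flips, p = 0.0625).

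**Figure D2:**
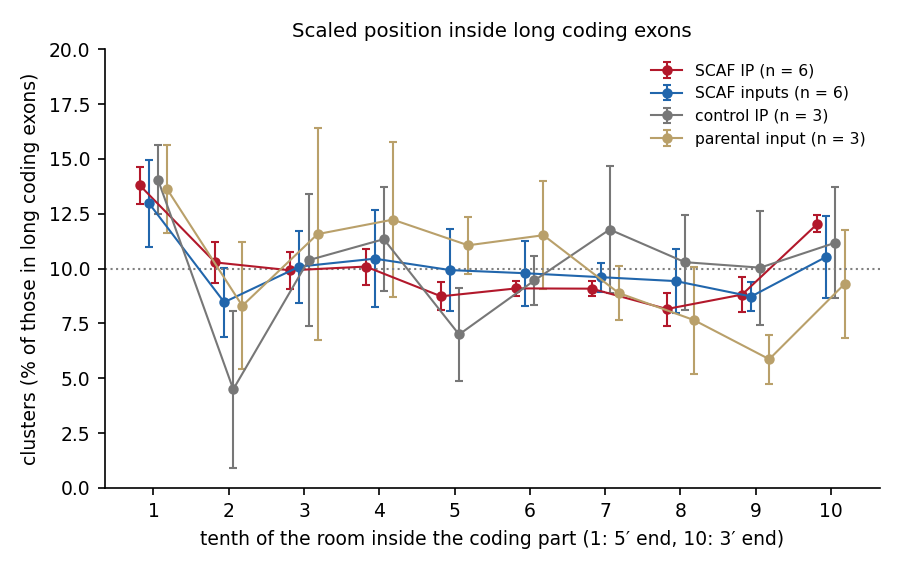
Percent of the clusters in each of 10 equal bins of the coding part, from the 5′ end (1) to the 3′ end (10), as means over lists with SD as bars. The dotted line marks an even spread, and in the SCAF IPs the first bin, at 13.8%, and the last, at 12.0%, lie above it. The first-bin means of the inputs and control IPs lie above it too.

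The density beside splice junctions separated IPs from inputs. For 1646 parts that begin and 1148 that end at a splice junction, the covered share of the 200 nt beside the junction was set against that of the interior of the part, more than 200 nt from either end. At the upstream junction the log2 ratio was −0.18, −0.02 and −0.12 in the SCAF4 IPs and −0.11, −0.30 and −0.13 in the SCAF8 IPs. Inputs were at −0.66, −1.68 and −1.80 for the FLAG-SCAF4 line and −0.69, −0.37 and −0.79 for the FLAG-SCAF8 line. All inputs were lower, by a mean of 0.85 (two-sided exact permutation p = 0.00216). The lowest of them, −1.68 and −1.80, came from the shortest of these input lists, with 5114 and 4793 clusters.

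At the downstream junction the SCAF4 IPs gave 0.01, 0.22 and 0.19 and the SCAF8 IPs −0.04, 0.05 and 0.15. The inputs gave −0.51, −0.67 and −1.12 and then −0.62, −0.21 and −1.22. Again no input reached an IP, and the mean difference was 0.83 (two-sided exact permutation p = 0.00216). Here the lowest input, at −1.22, came from a list of 9008 clusters. All inputs and control IPs were shorter lists than any SCAF IP, and the part of list length in the junction ratios was not tested. The control IPs were at −0.61, −1.47 and −0.56 upstream and at −0.45, −0.45 and −1.78 downstream, below every SCAF IP at both ends (exact permutation p = 0.0119 for each, adjusted 0.0410).

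With each exon's own interior as its expectation, IPs and inputs differed by 0.57 upstream (exact permutation p = 0.00433) and 0.37 downstream (p = 0.0238, adjusted 0.0492), and the ranges then overlapped. Against the control IPs the adjusted p was then 0.13 upstream and 0.123 downstream, by exact permutation. Among clusters scoring at or above their list's median the differences were 0.63 upstream (exact permutation p = 0.0606) and 0.37 downstream (p = 0.0887), so these calls did not hold in the upper part of the scores. Taken singly, with each exon's own interior as expectation, the SCAF4 IPs exceeded their inputs by 0.96 upstream and 0.45 downstream. Their ranges did not overlap (exact permutation p = 0.1 for each, the smallest possible with 3 lists against 3). The SCAF8 IPs exceeded their inputs by 0.18 upstream (exact permutation p = 0.2) and 0.30 downstream (p = 0.5), with overlapping ranges at each junction.

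In bins of 50 nt, coverage of the SCAF IPs reached 0.59 ± 0.06 (SD, n = 6) of the interior in the first bin of the exon and 1.06 ± 0.07 from 100 to 150 nt. It was 0.82 ± 0.09 in the last bin before the downstream junction and peaked at 1.20 ± 0.08 between 100 and 150 nt before it. The inputs of the same lines stood at 0.28 ± 0.14 in the first and 0.40 ± 0.14 in the last bin, and were still below 1 at 450 to 500 nt from either junction, where the bin means were 0.77 and 0.73. Outside the exon, coverage of the SCAF IPs was 0.16 ± 0.04 of the interior in the 50 nt of intron before it and 0.19 ± 0.04 in the 50 nt after it, against 0.05 ± 0.04 and 0.05 ± 0.03 in these inputs.

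Clusters that cross a junction were then counted, since they span intron sequence, which mature mRNA lacks. Of all clusters that overlapped a long part, 13, 55 and 35 crossed the upstream junction in the SCAF4 IPs and 22, 12 and 23 in the SCAF8 IPs, or 1.54% to 2.89%. In the inputs of these lines there were 2, 0 and 2, and 2, 4 and 2, at most 1.16%. For the downstream junction the SCAF IPs had 15 to 74 crossing clusters, or 2.46% to 3.89%, and these inputs 0 to 5, at most 1.63%. Both groups were apart at both junctions (two-sided exact permutation p = 0.00216 for each). The parental inputs had 4, 0 and 0 upstream but 11, 2 and 2 downstream, or 1.59% to 3.19%, which overlapped the SCAF IPs at that junction. The control IPs, with 6, 2 and 2 upstream and 5, 0 and 0 downstream, differed from the SCAF IPs downstream (exact permutation p = 0.0119, adjusted 0.0410) but not upstream (p = 0.964). Aligning reads without splicing would lose reads over exon-exon junctions in all lists, and the part of that loss in these ratios was not tested.

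**Figure D3:**
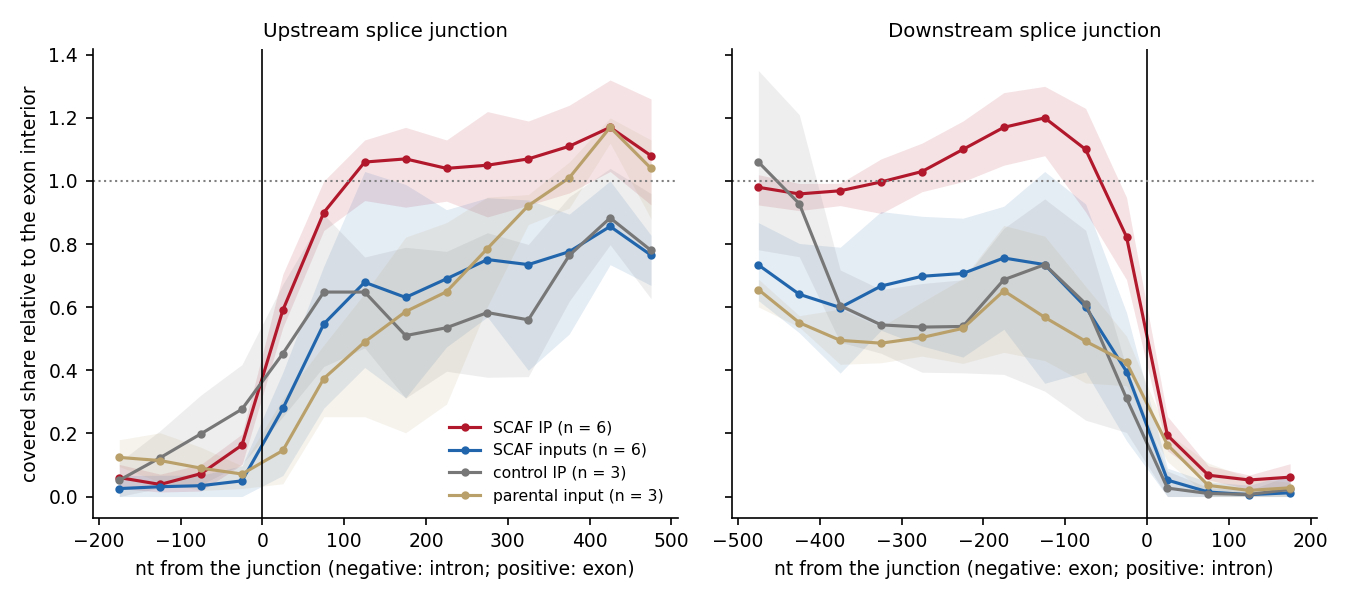
Covered share in bins of 50 nt around the upstream (left) and downstream (right) splice junctions of long coding exons, relative to the interior of the exon in the same list. Lines are means over lists and bands run from the lowest to the highest list; SCAF IPs reach the level of the interior (dotted line, 1) within 150 nt of both junctions, whereas the input means stay below it near both.

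Clusters far from any junction were common all the same. Among clusters in exons with a splice junction, 58.6% ± 1.13 (SD, n = 6) of the SCAF IP clusters had their midpoint over 500 nt from the nearest one, compared with 66.7% ± 4.38 in these inputs (exact permutation p = 0.00433, adjusted 0.0103). This share was not standardised by exon length. Parts of 1000 to 1500 nt held 1871 SCAF IP and 413 input clusters, and parts of 5000 nt upward 631 and 289. The part of exon length in the difference was not tested. The median length was 168 to 194 nt in the SCAF IPs and 163 to 189 nt in the inputs, longer than the 140 to 154 nt and 136 to 160 nt of all clusters in the same lists.

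The longest exons had the lowest density of SCAF clusters. Per 100 kb of coding sequence and list, there were 21.2 clusters in parts of 1000 to 1500 nt, 20.9 from 1500 to 2000 nt, 22.5 from 2000 to 3000 nt, 24.7 from 3000 to 5000 nt and 15.6 from 5000 nt upward, with no test of the trend. In the inputs of the same lines the density was 4.68 in the shortest and 7.15 in the longest class. At least 1 SCAF IP cluster was found in 32.1% of the 1217 shortest and 41.2% of the 85 longest parts. As for the limit itself, 361 parts less than 100 nt above it held 469 SCAF IP clusters, and 660 parts up to 100 nt below it held 519.

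To find the sites that recur, overlapping clusters of the 6 SCAF IP lists were merged into 2013 regions, of which 1182 had clusters from at least 2 lists. These recurrent regions had a median length of 261 nt and lay in 606 parts of 568 genes, 24.7% of the 2296 eligible genes. Clusters of all 6 lists contributed to 188 of them. Both proteins were represented in 914 (77.3%), 225 came from SCAF4 IPs alone and 43 from SCAF8 IPs alone, with the SCAF4 IP lists being the longer ones. The same merging of the 9 inputs gave 364 recurrent regions, in 212 genes or 9.23% of those eligible, and 362 of the 364 overlapped a SCAF IP cluster.

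Conversely, 661 (55.9%) of the recurrent SCAF regions overlapped no input cluster, 183 overlapped clusters of 1 input and 338 (28.6%) those of more. A cluster of a control IP was overlapped by 311 (26.3%). Neither was overlapped by 610 (51.6%), but among the 188 regions to which all 6 SCAF IP lists contributed, only 8 overlapped neither. Of 395 merged control IP regions, 79 recurred among the 3 control IPs, and 79 of these overlapped a SCAF IP cluster and 77 an input cluster. Inputs and control IPs were shorter lists, so that absence from them is a weaker statement than presence.

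The genes with the most recurrent regions were named by rule. KMT2A had 12, in its exon 4 and exon 28, of which 5 overlapped no input or control IP cluster. Its clusters numbered 4, 13 and 9 in the SCAF4 IPs and 5, 7 and 11 in the SCAF8 IPs, against 3, 0 and 0 in the control IPs, 1, 0 and 0 in FLAG-SCAF4 line inputs, 1, 4 and 3 in FLAG-SCAF8 line inputs and 3, 0 and 1 in parental inputs. The SCAF IPs were each at or above the highest other list. Exon 4 lies at chr11:118471662-118474315, and regions covered 73.7% of its 2654 nt. SRCAP, with 7 regions, had 4, 10 and 7 clusters in the SCAF4 IPs and 3, 4 and 8 in the SCAF8 IPs, but only 1 in control IP replicate 1, 1 in FLAG-SCAF4 line input replicate 1 and 0 in the 10 other lists. No region of SRCAP recurred among inputs, and the 2 exons that held them were exon 25 and the last, exon 34.

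Other chromatin proteins followed. ANKRD11, a nuclear cofactor of histone deacetylases, had 9 regions in exon 9, covering 69.3% of 6578 nt at chr16:89279072-89285649. It held 10, 12, 10, 8, 9 and 13 clusters across the SCAF IPs, 4 in control IP replicate 1 and 0 to 5 in the inputs. BOD1L1, which protects stalled replication forks, had 7 regions in exon 10, 6 of them without input or control overlap. Its clusters were unevenly spread, with 2, 14 and 9 in the SCAF4 IPs and 1, 0 and 3 in the SCAF8 IPs. TASOR2 had 7 regions and also 5 recurrent input regions, and ZDBF2, an imprinted gene, had 8 in its last exon.

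RNF213, a large ubiquitin ligase, was the gene among the 12 with no input or control cluster at all. It held 3, 8 and 7 clusters in the SCAF4 IPs and 0, 1 and 2 in the SCAF8 IPs, and 0 in the 12 other lists. All 7 of its regions, 6 in exon 29 and 1 in exon 26, were therefore free of overlap. PRR14L had 7 regions, 5 of them free, with 5, 11 and 7 clusters in the SCAF4 IPs, 3, 5 and 7 in the SCAF8 IPs and at most 2 elsewhere.

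Scaffold and cytoskeletal proteins were the next kind. MAP1B, a microtubule-associated protein, had 10 regions over 92.4% of the 6502 nt of its exon 5, at chr5:72193866-72200367. It held 12, 15 and 15 clusters in the SCAF4 IPs and 11, 2 and 8 in the SCAF8 IPs, and the inputs ranged from 0 to 10. AKAP12, an anchor for protein kinase A, had 9 regions in the 5027 nt of exon 4, with 8, 9 and 8 clusters in the SCAF4 IPs and 5, 2 and 8 in the SCAF8 IPs. Its controls and inputs held 0 to 2. In AKAP12 the groups did not overlap save at SCAF8 IP replicate 2.

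The mitotic genes named by rule had many clusters in the inputs too. CENPF, a kinetochore protein, had 10 regions over 96.8% of exon 12 and 87.0% of exon 13. It held 13, 13 and 16 clusters in the SCAF4 IPs, 13, 11 and 20 in the SCAF8 IPs, 13, 7 and 6 in FLAG-SCAF4 line inputs and 11, 10 and 11 in FLAG-SCAF8 line inputs. ASPM, a spindle pole protein, had 10 regions in exons 3 and 18 and 7 recurrent input regions. It held 8, 12 and 9 clusters in the SCAF4 IPs and 5, 5 and 7 in the SCAF8 IPs, against 5, 1 and 1 in FLAG-SCAF4 line inputs and 3, 4 and 3 in FLAG-SCAF8 line inputs, so the SCAF IPs were at or above these inputs. The control IPs held 5, 0 and 1 and the parental inputs 7, 1 and 2, and both overlapped the SCAF8 IPs. MKI67, the proliferation antigen Ki-67, held 16, 3 and 8 clusters in the SCAF4 IPs, 14, 19 and 17 in the SCAF8 IPs, 13, 16 and 18 in FLAG-SCAF4 line inputs and 4, 19 and 16 in FLAG-SCAF8 line inputs. Only 3 recurrent SCAF regions were counted there, since 2 of them joined into 98.9% of the 6845 nt of exon 13. Counts of regions thus understate exons that are covered end to end.

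SON, a nuclear speckle scaffold, was the clearest case of an input gene. Its exon 3, 5916 nt at chr21:33549476-33555391, held 9, 7 and 7 clusters in the SCAF4 IPs, 11, 10 and 8 in the SCAF8 IPs, 11, 10 and 7 in the control IPs, 13, 14 and 15 in FLAG-SCAF4 line inputs, 12, 11 and 13 in FLAG-SCAF8 line inputs and 15, 12 and 11 in parental inputs. The 6 SCAF IPs were at or below every input. Of the 6 genes with the most recurrent input regions, ASPM, CENPF, MKI67, SON, MAP1B and TASOR2, 4 were also among the 12 genes with the most recurrent SCAF regions.

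**Figure D4:**
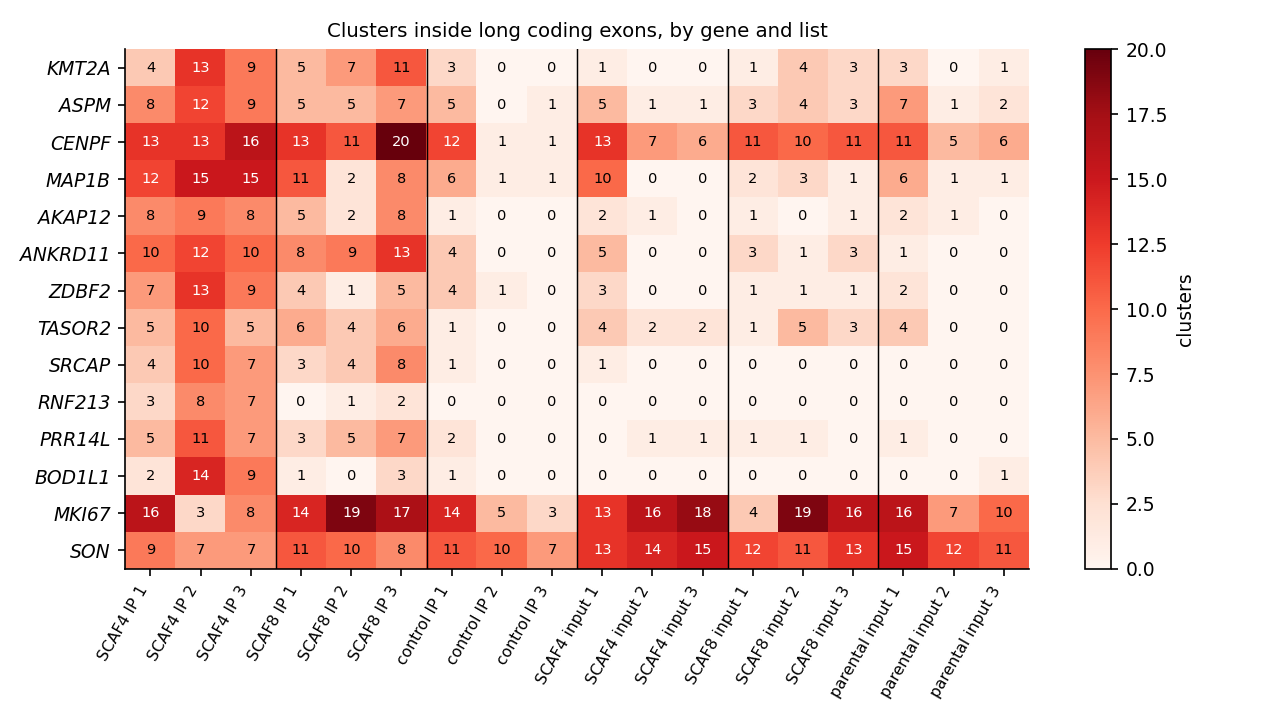
Number of clusters inside long coding exons for 14 genes (rows) in each of the 18 lists (columns), with colour for the same number. SRCAP, RNF213, PRR14L and BOD1L1 hold at most 2 clusters in any control IP or input, whereas MKI67 and SON are filled in every group.

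At the other end, 1501 (65.4%) of the eligible genes had no cluster in a long coding exon in any list. The longest such exons belonged to CCDC168, with 20935 coding nt, to TTN, the giant protein of striated muscle, with 17106 nt in its longest, and to AHNAK2 and C2orf16, with 16734 and 15790 nt. Transcript levels are not part of these data, so an exon without clusters cannot be told apart from a gene that is not transcribed. For the same reason a difference in crosslinking per transcript and one in transcript number cannot be told apart in any of the counts. The SCAF8 gene itself has an eligible last exon, exon 20, with 1454 coding nt. It held 1, 4 and 4 clusters in the SCAF4 IPs, 1, 0 and 0 in the SCAF8 IPs and 3, 0 and 0 in the FLAG-SCAF8 line inputs. Transgene and endogenous RNA cannot be told apart in these lists.

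Gene lists chosen by function were then counted against the 24.7% of eligible genes with a recurrent SCAF region. Of 20 eligible genes for nuclear speckle and RNA processing proteins, 18 had one, among them PRRC2C with 6 and RBM12 with 4, and 11 had a recurrent input region, against 9.23% of all. Of 9 DNA damage response genes 7 had a recurrent SCAF region, led by BOD1L1 and by MDC1 with 5 regions, and 3 a recurrent input region. Of 17 mitosis, centromere and centrosome genes 13 had a recurrent SCAF region, including CEP250 with 4, and 7 a recurrent input region. Among 33 chromatin regulators 23 had a recurrent SCAF region and 14 a recurrent input region. Of 19 cytolinkers and large scaffold proteins 11 had a recurrent SCAF region, including MACF1 with 4 regions, and 6 a recurrent input region. Of 7 signalling adaptors 3 had a recurrent SCAF region, with 4 regions in ARHGAP5, and 2 a recurrent input region. Each of these lists was thus above the 9.23% of all eligible genes in recurrent input regions too. The lists were compiled from well-known large genes with earlier results of these data known, so these counts describe them and no more.

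Families defined by symbol alone behaved otherwise. C2H2 zinc finger genes, whose finger arrays are usually encoded by 1 exon, made up 400 of the eligible genes and 14.98% of the coding nt. Of these, 86 (21.5%) had a recurrent SCAF region and 32 (8%) a recurrent input region, close to the shares among all genes. ZNF292 had 6 regions, and ZNF217 had 4, none of which overlapped an input or control IP cluster. Zinc finger genes supplied 10.7% to 14.0% of the clusters in the SCAF IPs and 3.03% to 13.8% in the inputs (exact permutation p = 0.19), and 10.1%, 8.51% and 1.75% in the control IPs, each below every SCAF IP (exact permutation p = 0.0119, adjusted 0.0410). By line, the SCAF4 IPs, at 10.65% to 13.99%, lay above their inputs, at 3.03% to 10.59% (exact permutation p = 0.1, the smallest possible). The SCAF8 IPs, at 12.0% to 13.35%, overlapped theirs, at 12.53% to 13.79% (exact permutation p = 0.7). Protocadherins, adhesion proteins with their extracellular part in 1 exon, had 44 eligible genes, of which only PCDH7 had recurrent regions, with 4. As shares of clusters, speckle genes gave 3.26% to 8.55% in the SCAF IPs and 10.9% to 26.1% in the inputs, while chromatin regulators gave 7.61% to 9.32% and 5.14% to 9.12%. Mitosis, centromere and centrosome genes gave 3.38% to 7.64% in the SCAF IPs and 9.36% to 15.2% in the inputs. The speckle ranges and the mitosis ranges did not overlap, with the inputs higher in both.

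The base composition of the clusters was compared last. Clusters had 49.2%, 49.4% and 49.8% G + C in the SCAF4 IPs and 48.7%, 49.6% and 49.9% in the SCAF8 IPs, as means over clusters. Inputs had 47.2%, 47.8% and 49.2% and 45.0%, 48.0% and 47.1%. The groups overlapped only slightly, with a difference of 2.06 percentage points (two-sided exact permutation p = 0.00433). For U, SCAF IPs had 21.9% ± 0.36 (SD, n = 6) and inputs 22.8% ± 0.74 (exact permutation p = 0.00433). All eligible coding parts had 51.7% G + C and 21.2% U. The control IPs, with 48.9% to 50.97% G + C, overlapped the SCAF IPs (exact permutation p = 0.762).

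Both differences were smaller once the exon around each cluster was taken into account. Subtracting the G + C share of the coding part around each cluster left −0.35 ± 0.08 percentage points in SCAF IPs and −0.43 ± 0.21 in inputs (SD, n = 6; exact permutation p = 0.411). For U the same subtraction left 0.23 ± 0.32 in SCAF IPs and 0.61 ± 0.18 in inputs, a difference of −0.38 (exact permutation p = 0.0433, adjusted over 31 measures 0.0839). Clusters of both groups were thus slightly poorer in G + C than the exon around them (exact sign flips, p = 0.0312 for each). In parts of at least 2000 nt the difference between IPs and inputs was 0.88 (exact permutation p = 0.177).

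The 3 short motifs counted were those the study named as overrepresented at SCAF sites of this experiment, with input clusters as background. Comparing them between these IPs and inputs therefore gives no independent support. They were counted on the transcribed strand only, and none contains another. CGG or CGA occurred 1.63 ± 0.07 times per 100 nt in windows around the midpoint in SCAF IPs and 1.40 ± 0.14 times in inputs (SD, n = 6). The p of the exact permutation test was 0.013 after adjustment over the 3 motifs, and 0.0938 by sign flips within the 6 pairs of IP and input from the same extract. Windows with at least 1 match were 71.2% in SCAF IPs and 66.9% in inputs, against 63.8% of 45811 windows of 100 nt over all eligible parts. Relative to the exon around them, clusters had 0.11 ± 0.03 more matches per 100 nt in SCAF IPs and 0.16 ± 0.05 more in inputs, and this excess had the lower mean in the IPs (exact permutation p = 0.0541, adjusted over the 3 motifs 0.162). The second motif, CAG with a C or G on each side, occurred 0.65 and 0.60 times, and the third, CTCC or CACC, 0.85 and 0.78 times (adjusted exact permutation p = 0.193 and 0.0942). Both were rarer than over all eligible parts, with 1.00 and 1.31 per 100 nt.

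Read in frame, the codons inside the clusters differed between IPs and inputs for 9 of 20 amino acids (exact permutation tests adjusted over the 20). Serine made up 10.5%, 10.2% and 10.1% of codons in the SCAF4 IPs and 10.7%, 10.8% and 10.6% in the SCAF8 IPs. It made up 11.4%, 13.7% and 13.7% and 12.3%, 11.7% and 12.0% in the inputs, all higher (adjusted exact permutation p = 0.0144). Arginine was at 6.39% ± 0.35 in SCAF IPs and 8.04% ± 0.90 in inputs (adjusted exact permutation p = 0.0144). Over all eligible parts the values were 10.4% and 5.30%. Glutamate was higher in the SCAF IPs, at 9.57% ± 0.30 against 8.89% ± 0.31, and so was leucine, at 8.60% ± 0.17 against 7.89% ± 0.34 (adjusted exact permutation p = 0.0144 and 0.0216).

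Serine and arginine are the residues that speckle proteins such as SON and SRRM2 carry in long runs. In a comparison added after the data were seen, the genes of the nuclear speckle list were left out. That list was compiled with earlier results of these data known, and the part of its genes in the difference was not tested. Serine then stood at 9.85% in SCAF IPs and 10.1% in inputs and arginine at 5.74% and 5.87% (adjusted exact permutation p = 0.26 and 0.794). Proline was then higher in the SCAF IPs, with 5.63% against 4.73%, lysine lower, with 6.79% against 7.44%, and alanine higher, with 6.03% against 5.40% (adjusted exact permutation p = 0.0216, 0.0216 and 0.0433).

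**Figure D5:**
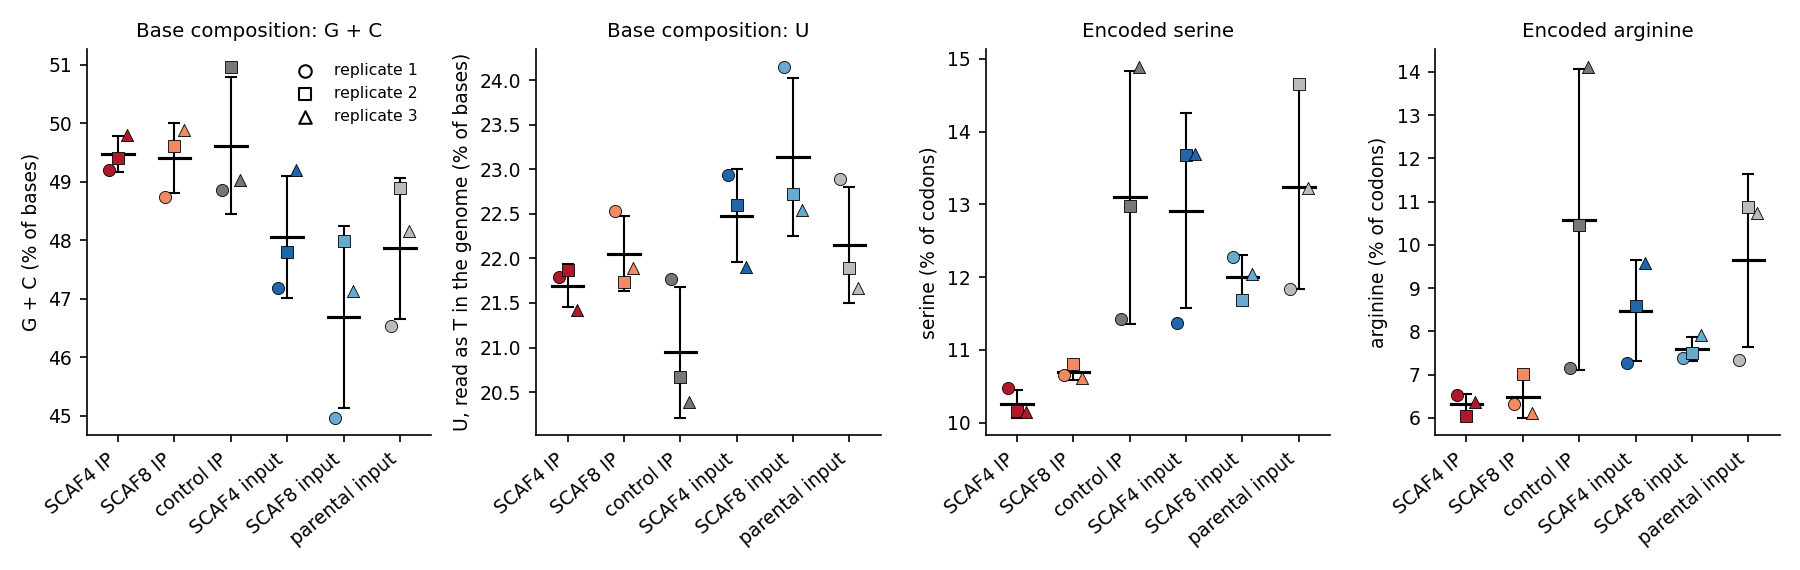
G + C and U in percent of bases and serine and arginine in percent of codons for the clusters in long coding exons, by list. Points are lists, lines are means and bars are SD (n = 3); the 6 SCAF IP lists lie below every input in serine and arginine.

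SCAF4 and SCAF8 IPs were finally set against each other. With 3 lists each, the exact permutation test cannot go below p = 0.1. The share of the list was higher in every SCAF4 IP than in every SCAF8 IP, by 0.26 on the log2 scale (exact permutation p = 0.1), and the direction was the same when each replicate number was left out. Coverage of long over shorter coding exons differed by −0.07 (exact permutation p = 0.6), the upstream junction ratio by 0.07 (p = 0.5), the downstream ratio by 0.09 (p = 0.4) and G + C by 0.07 percentage points (p = 1). For each of these 4 the lists of both proteins overlapped. Besides the share, 2 of the 31 measures did not overlap. The U share minus that of the coding part was −0.20 to 0.12 percentage points in the SCAF4 IPs and 0.42 to 0.62 in the SCAF8 IPs, and the upstream junction ratio standardised by exon was higher in the SCAF4 IPs by 0.17 (exact permutation p = 0.1 for each, adjusted 0.886). The design cannot show that SCAF4 and SCAF8 IPs were alike.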

How the data were processed

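Clusters were made by the authors, who, per the labels, used bcl2fastq 1.8, Trim Galore with cutadapt, Bowtie2 2.2.9 and Picard on GRCh38, and, as their methods state, merged both fractions of a replicate before PARalyzer called clusters. Each deposited list gives start, end, strand and an unnamed score, which served only to rank clusters. The lists precede the filters on inputs and control IPs and hold no reads, so depth is unknown and intervals cannot be given. Bowtie2 aligns without splicing, so reads over exon-exon junctions would be lost.

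Starts were read as BED. Genes and exons were taken from GENCODE 44, bases from GRCh38. Clusters were counted once each, and coverage used merged clusters. Regions were merged at an overlap of 1 nt or more. Groups of lists were compared by two-sided exact permutation of list labels, and pairs and references by exact sign flips. Adjustment was by Benjamini-Hochberg over the 31 measures of a contrast, the 3 motifs or the 20 amino acids. Codons were read in the annotated frame, with 71 stop codons among 1564021 codons. Python 3.11.15, numpy 2.4.6, pandas 2.3.3, pysam 0.24.0 and matplotlib 3.10.9 were used, and coverage ratios and permutation tests were tested on simulated data.

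Members, gene lists and tests were chosen with earlier results of these data known. Named genes were the 12 with the most recurrent SCAF regions, the 6 with the most recurrent input regions, up to 4 per gene list (1 of them is not reported here), the 4 longest exons without clusters, and the regions in all 6 SCAF IP lists alone. Zinc finger genes and protocadherins have close paralogs, between which the alignment may split reads.

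Each input was taken from the extract used for the IP of the same number, which pairs them. Over genes, deviations from the group mean correlated at 0.0672 to 0.207 within the 6 pairs of both FLAG-tagged lines and at −0.177 to 0.0565 for 12 pairs of different numbers. The study calls the replicates biological, and p-values measure the spread between these lists.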

Additional observations from a re-analysis of the deposited data

Results flagged for a closer look

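4 measures differed in the change from input to IP between the FLAG-SCAF4 and FLAG-SCAF8 lines on one side and the parental line on the other. The test compared 6 pairs of IP and input with 3 pairs by exact permutation, and none passed after adjustment over 10 measures (adjusted p = 0.0893 for each of the 4). The change in the log2 share of the list was 0.03 in the SCAF lines and 0.65 in the parental line, a difference of −0.62 (exact permutation p = 0.0357). The log2 coverage of long over shorter coding exons changed by −1.15 and −0.54, a difference of −0.62 (exact permutation p = 0.0238), and it was below 0 in 9 of 9 pairs. The scaled position changed by −0.00707 and 0.0496, a difference of −0.0566 (exact permutation p = 0.0119), and 2 of the 3 control IPs behind it held 94 and 57 clusters. The density of CTCC or CACC changed by 0.06 and −0.08 per 100 nt, a difference of 0.14 (exact permutation p = 0.0357).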

How the results depend on the processing

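For 15 results, 116 values under other settings were computed, of which 84 kept direction and side of the threshold. With 1 replicate number left out of every group, 33 of 45 did. Coverage of long over shorter coding exons kept its direction and call in all of them (−1.20 to −1.11 with a replicate left out). Clusters at or above the median score gave a member share of −0.51 against the control IPs, junction differences of 0.63 upstream and 0.37 downstream, a U difference of −0.80, differences of 0.10 in CAG flanked by C or G and 0.15 in CTCC or CACC, 785 recurrent regions and 4 amino acids. With midpoints inside the exon CTCC or CACC gave 0.0691 and the position against the midpoint −0.00988. With canonical isoforms the member share against inputs was −0.0152. In parts of at least 2000 nt it was −0.13, with −0.49 against the control IPs, a scaled position of 0.00217, G + C 0.88, U −0.45, flanked CAG −0.0342, CTCC or CACC −0.0735, 538 regions and 14 amino acids; fewer exons enter that count. Without zinc finger genes the member share was −0.0124, the position −0.0101 and the amino acids 15. With each exon weighted equally, flanked CAG gave 0.13 and CTCC or CACC 0.17. The replicate block left CGG or CGA at 0.24 but with an adjusted p of 0.0938 by exact sign flips, and it changed no other call. Added after the data were seen, subtracting the coding part gave G + C 0.0773, U −0.38, CGG or CGA −0.0509 and flanked CAG −0.0118. Also added then, leaving out the nuclear speckle list gave flanked CAG 0.0925, CTCC or CACC 0.19 and 3 amino acids.

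With a replicate number left out, the member share against inputs ranged from −0.18 (without replicate 1) to 0.14, G + C from 1.65 to 2.29, U from −1.12 to −0.71, CGG or CGA from 0.21 to 0.26 and the position against the midpoint from −0.0222 to −0.0153. G + C and U lost the call without replicate 2 (exact permutation p = 0.0571), CGG or CGA under each of the 3 omissions. The number of amino acids was 0 to 0, and 4 lists against 4 can hardly pass over 20 tests. Read depth, and so its part in these results, is unknown.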
